A study of Mus musculus with 32 samples.

Results

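The 9 genes described here, Zbp1, Fadd, Casp8, Ripk1, Ripk3, Mlkl, Casp4, Gsdme and Ninj1, belong to routes of lytic cell death. Nlrp3, Casp1 and Gsdmd were left out of this set, which does not mean that each route runs without them. The 9 genes were picked by symbol for their place in these routes, and each matched exactly 1 of the 33397 genes in the deposited table. RNA had been sequenced from gastrocnemius (GAS) muscle of male C57BL/6 mice (C57BL/6J in the methods of the study), in 8 groups of 4 samples and 32 samples in all, at 0, 1, 3, 5, 7, 14, 21 and 28 d. The labels list sciatic nerve transection as the treatment of every group, 0 d included, whereas the methods of the study describe sham-operated mice as controls, so it is not settled whether the 0 d muscles were operated on. The labels give no age, and the methods of the study describe mice several weeks old. Column names give the day but not which animal it came from, so the 4 samples of a group were used as replicates, and the p-values below measure the spread between these samples, which may be partly technical.

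Cells die by necroptosis when a death receptor or the nucleic acid sensor Zbp1 brings the kinases Ripk1 and Ripk3 together and Ripk3 phosphorylates Mlkl, which then opens the plasma membrane. The adaptor Fadd and the protease Casp8 sit on the same platform, start apoptosis and hold necroptosis back by cutting the kinases. Casp4, the mouse gene also known as Casp11, is the noncanonical inflammasome caspase that binds lipopolysaccharide inside the cell, and Gsdme is a gasdermin that forms membrane pores once it is cleaved. Ninj1 is a small membrane protein that oligomerises late in lytic death and ruptures the membrane. Muscle fibres, resident macrophages, endothelial cells, fibroblasts and Schwann cells all contribute RNA to a whole muscle, and in such bulk samples a change in the number of cells of a type and a change in RNA per cell cannot be told apart.

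The promoter sequences of 3 of the genes are shown because they stand for the 2 outcomes described below. Casp4 and Ninj1 rose at every time point, and Mlkl passed the test at none. The sequences come from RefSeq promoter windows (250 bases before to 50 after a transcription start, build GRCm38.p6), cut before the first annotated exon base of the gene (Casp4 and Ninj1) or the RefSeq start (Mlkl), and run 5′ to 3′ on the strand of the gene. The Casp4 stretch is chr9:5308599-5308827 (plus strand), the Ninj1 stretch chr13:49187279-49187484 (plus strand) and the Mlkl stretch chr8:111338206-111338455 (minus strand), and all 3 lie upstream of the annotated exons. Capitals mark matches to 4 motifs searched on both strands with any overlap allowed, namely the core of the interferon-stimulated response element (GAAANNGAA), the gamma-activated site (TTCNNNGAA), the NF-kappaB site and the myogenic E-box (CAGCTG).
Casp4: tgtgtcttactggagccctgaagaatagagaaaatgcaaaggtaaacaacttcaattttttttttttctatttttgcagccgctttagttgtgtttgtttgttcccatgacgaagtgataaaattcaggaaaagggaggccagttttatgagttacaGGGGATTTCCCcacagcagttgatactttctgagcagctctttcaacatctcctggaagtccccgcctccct
Ninj1: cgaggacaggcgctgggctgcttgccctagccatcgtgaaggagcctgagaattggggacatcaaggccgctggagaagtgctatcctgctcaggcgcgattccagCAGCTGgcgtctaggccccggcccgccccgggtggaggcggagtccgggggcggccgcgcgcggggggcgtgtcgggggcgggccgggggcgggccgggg
Mlkl: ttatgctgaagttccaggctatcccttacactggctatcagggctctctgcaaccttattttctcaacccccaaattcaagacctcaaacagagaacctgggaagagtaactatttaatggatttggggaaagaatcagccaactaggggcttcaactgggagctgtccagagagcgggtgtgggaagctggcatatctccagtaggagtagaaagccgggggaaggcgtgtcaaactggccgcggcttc

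The capitals in Casp4 are 2 overlapping matches to the NF-kappaB site, which together span positions -93 to -83 from the RefSeq start base at position 0. A match to this motif occurred in 4.51% of all 32851 windows. The capitals in Ninj1 are 1 myogenic E-box at -144 to -139, a motif held by 16.3% of all windows, and Mlkl held none of the 4 motifs. Of the other genes, Fadd and Ripk1 held an E-box. A second Ripk1 window, inside the gene, held an interferon-stimulated response element core (8.56% of all windows) and 2 gamma-activated sites (8.30%), and Ripk3 held 1 such core. The windows of Casp8 and Gsdme held none, 8 of the 9 genes had a window in the table, and Zbp1 was not analysed here for promoter sequence. A match is a run of letters and says nothing on whether a factor binds there.

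The libraries were of similar depth, from 14199901 to 17561584 fragments per sample as recovered from the FPKM values, in which fragments are scaled to exon length and library total. Mitochondrial transcripts took 14.5% to 18.2% of the fragments at 0 d and 6.70% to 17.1% afterwards, and the FPKM of the other genes moves against that share. Over the 11943 genes whose mean FPKM reached 1, the median log2 change was 0.12 on day 1, 0.20 on day 3 and between 0.24 and 0.32 from then on, so the tests of the 9 genes were repeated after median-ratio scaling, which brings this median close to 0. The labels describe extraction from retinas. The summed FPKM of 5 muscle fibre markers (Acta1, Ckm, Myh4, Mb and Tnnt3) was 19522 or more in every sample, with a median of 34593 at 0 d, 30758 at 1 d and 21616 to 24899 from 3 d on, whereas 5 photoreceptor markers summed to 0.504 or less, with Rcvrn at 3 fragments or fewer in all 32 samples. The summed FPKM of 8 macrophage markers lay between 146 and 215 at 0 d and between 229 and 1207 afterwards, and all 8 exceeded their 0 d range in every sample at 5, 7, 14 and 21 d. The 6 neutrophil markers summed to between 1.30 and 2.30 at 0 d and to between 9.04 and 97.0 at later times, and 2 to 5 of them, depending on the day, exceeded their 0 d range in every sample. The 4 Schwann cell markers had a median sum of 92.9 at 0 d, 30.3 at 1 d and 7.49 to 17.6 from 3 d on. No macrophage or neutrophil marker was at 3 fragments or fewer in every sample, and the part of these cells in the results below was not tested.

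None of the 9 genes was at the detection floor, set at 3 fragments in a sample. Zbp1 came closest, with 5 fragments in its lowest sample (0 d sample 2), where 3 fragments correspond to an FPKM of about 0.051 at the median depth. Ripk3 had 21, Fadd 23, Casp4 33 and Mlkl 39 fragments in their lowest samples, which were 3 d sample 1 for Ripk3, Fadd and Mlkl (for Ripk3 also 21 d sample 3) and 0 d sample 3 for Casp4. Casp8 (99), Gsdme (127), Ripk1 (132) and Ninj1 (212) were counted more deeply. On the FPKM scale, which is per exon length, the mean level over all 32 samples was 29.5 for Ninj1, 3.91 for Casp8, 2.34 for Casp4, 1.87 for Mlkl, 1.73 for Ripk1, 1.24 for Ripk3, 1.07 for Zbp1, 1.05 for Fadd and 0.835 for Gsdme. Ninj1 thus stood at the 93.5th percentile of the 22071 genes tested and the other 8 between the 43.5th and the 67.0th.

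Every gene entered the test, limma on log2(FPKM + 1) across all 32 samples, in which a gene was called at a Benjamini-Hochberg adjusted p under 0.05 over all genes tested. Against 0 d, 5 of the 9 genes were higher at 1 d, where 20.4% of all genes tested were, and 5 at 3 d, where 29.0% were. Again 5 were higher at 5 d (36.1% of all genes) and 5 at 7 d (37.1%). The number was 3 at 14 d (38.0%) and 3 at 21 d (31.7%) and was 4 at 28 d (37.8%). Over the 63 pairs of a gene and a day, 30 were higher, against 32.9% of all such pairs in the table, and 0 were lower, against 10.3%. No pair was lower at an unadjusted p under 0.05 either, and limma-voom on the recovered fragments also gave 0. After median-ratio scaling 22 pairs were higher and 4 were lower, beside 19% and 19.8% of all pairs, and the 4 lower pairs all belonged to Gsdme. The median log2 change of the 9 genes was 0.48 at 1 d and 0.51 at 3 d, beside 0.03 and 0.06 over all genes tested, and 0.33 at 28 d beside 0.14. Over the genes whose mean FPKM reached 1, the median was 0.12, 0.20 and 0.30 at 1, 3 and 28 d. Over the 8 groups together, 5 of the 9 genes varied by limma's moderated F test (Ninj1, Casp4, Gsdme, Ripk1 and Zbp1), against 63.2% of all genes tested. The 7 comparisons share the 0 d samples and are not independent of each other.

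**Figure D1:**
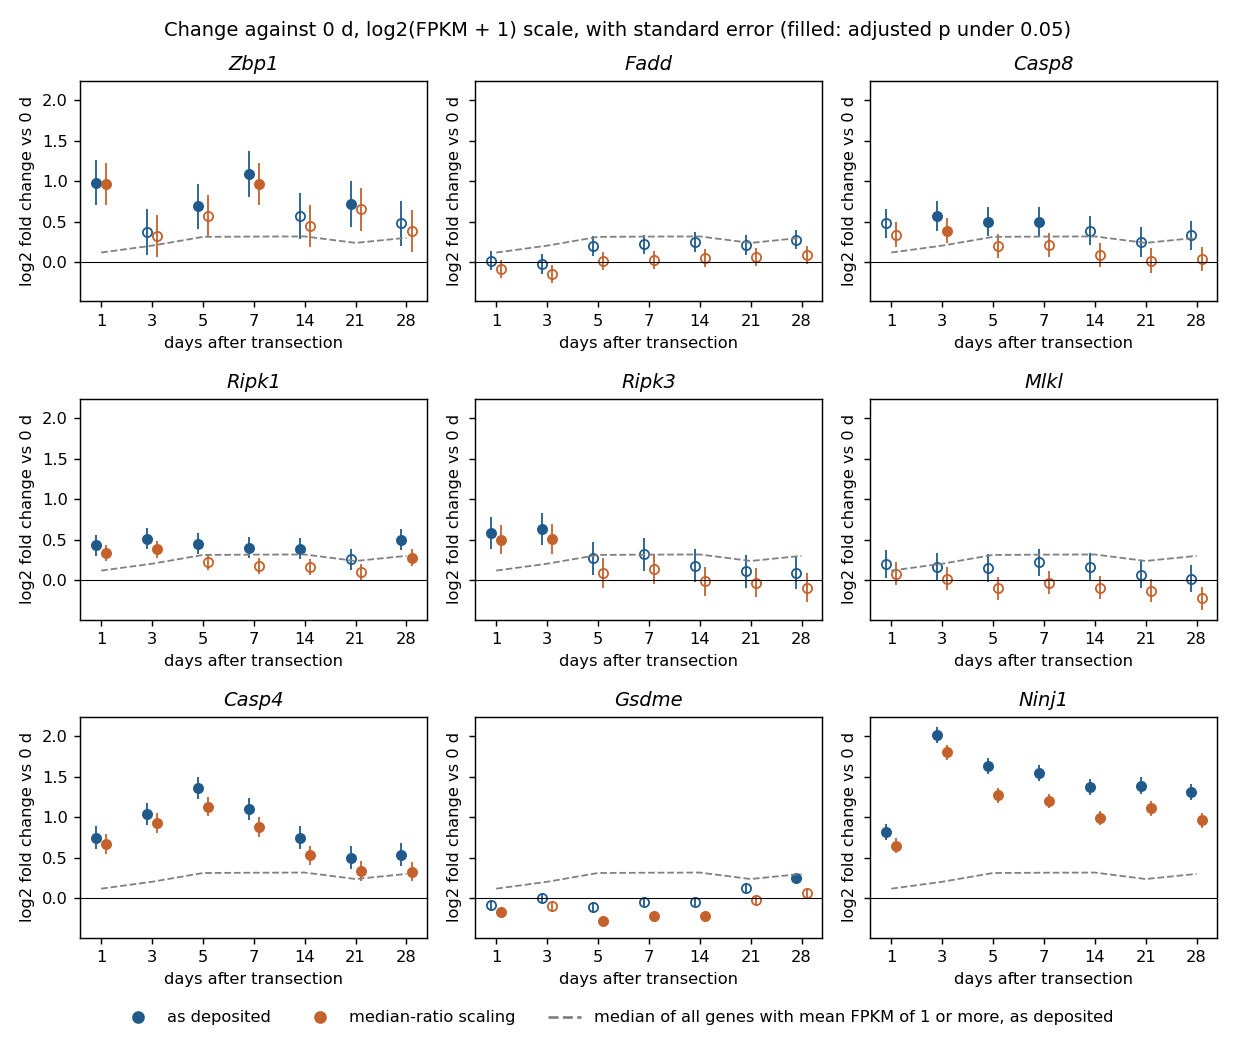
Log2 fold change against 0 d on the log2(FPKM + 1) scale (vertical axis) by day after transection (horizontal axis) for each of the 9 genes, with the standard error of the limma fit as bars, as deposited (blue) and after median-ratio scaling (orange). Filled symbols passed an adjusted p under 0.05, and the dashed grey line is the median change of all genes whose mean FPKM reached 1. Casp4 and Ninj1 are filled at all 7 days under both scalings, and the 28 d call of Gsdme is lost after scaling.

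Zbp1 (ENSMUSG00000027514, chr2:173206612-173218923, minus strand) encodes the sensor of Z-form nucleic acids that recruits Ripk3. It was the lowest of the 9 genes at 0 d, with FPKM of 0.497, 0.0949, 0.353 and 0.161 in the 4 samples, or 27, 5, 19 and 9 fragments. At 1 d the values were 0.858, 0.516, 1.09 and 5.68. Sample 4 of 1 d thus lay far above the other 3, all of which still exceeded every 0 d sample. At 7 d Zbp1 reached 2.70, 1.62, 0.759 and 2.08, again without overlap with 0 d. The values at 3 d were 0.388, 0.694, 0.766 and 0.739, and here the ranges overlapped. Zbp1 was called higher at 1 d (log2 change 0.98 ± 0.28 (SE), limma adjusted p = 0.00785), at 7 d, at 5 d (0.69, limma adjusted p = 0.0475) and at 21 d. The 5 d call was lost when any 1 of 21 of the 32 samples was left out (samples 2, 3 and 4 of 0 and 3 d, 3 and 4 of 5 d, 2 and 4 of 7 d, 1, 3 and 4 of 21 d and each sample of 14 and 28 d), and the limma adjusted p was highest, 0.144, without 5 d sample 4 (log2 change 0.57). The 21 d call was lost without sample 2, 3 or 4 of 0 d or sample 1, 2 or 3 of 21 d, and the limma adjusted p was highest, 0.119, without 21 d sample 2 (0.62). Both calls were also lost after median-ratio scaling, under which the changes at 1 and 7 d held at 0.96 each. Over the 8 groups the limma adjusted p of the F test was 0.0306, and it lay between 0.052 and 0.0804 without sample 2, 3 or 4 of 0 d or sample 1 or 4 of 7 d. Without 1 d sample 4 and 3 d sample 1, which stand apart as described below, the 1 d change was 0.51 (limma adjusted p = 0.0441). With only the 2 groups in the fit, the 1 d call was lost (0.98 ± 0.40 (SE), limma adjusted p = 0.0818). Zbp1 was not called at 14 d (0.631 to 1.15) or 28 d (0.533 to 0.996), although all 4 samples of each day exceeded the 0 d range. Both days passed the threshold without 1 d sample 4 (limma adjusted p = 0.00966 at 14 d and 0.0258 at 28 d), with a pseudocount of 0.1 (0.00951 and 0.0201), as TPM, which gives every sample the same sum (0.0206 and 0.0471) and with only the 2 groups in the fit (0.00247 and 0.00499), and 14 d also passed with limma-voom on the recovered fragments (0.0357). The fit of only 2 groups called 3 d too (limma adjusted p = 0.0297). With no filter on low values the calls at 5 and 21 d and the F test were lost (limma adjusted p = 0.078, 0.0682 and 0.0562).

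Fadd (ENSMUSG00000031077, chr7:144577318-144582463, minus strand), the adaptor that links death receptors to Casp8, passed the test at no time point. Its FPKM was 0.881, 0.824, 0.806 and 0.839 at 0 d, a narrow group of 48 to 53 fragments. At 28 d the samples had 1.17, 1.14, 0.899 and 1.80, all above the 0 d range, with sample 4 the highest of all 32. The limma adjusted p at 28 d was 0.0662. It came to 0.0267 without 28 d sample 3, 0.036 without 3 d sample 1 and 0.0443 without 7 d sample 1, and the 7 d value came to 0.0427 without 7 d sample 3. With the FPKM rescaled to TPM, Fadd passed the test at 14 d (limma adjusted p = 0.0271) and 28 d (limma adjusted p = 0.0246), and with only the 2 groups in the fit at 5, 14, 21 and 28 d (limma adjusted p = 0.0405, 0.0282, 0.0185 and 0.0496). Without 1 d sample 4 and 3 d sample 1 it passed at 28 d (limma adjusted p = 0.0363). On the median-ratio scale it passed at none of the 7 days (limma adjusted p from 0.303 to 0.988). The groups at 5, 14 and 21 d did not overlap with 0 d either, whereas those at 1, 3 and 7 d did. The exons of Fadd share 239 bases with the antisense gene Faddos, whose mean FPKM was 0.025.

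Casp8 (ENSMUSG00000026029, chr1:58795374-58847503, plus strand) encodes the initiator protease of the platform. Its FPKM was 2.40, 2.29, 3.40 and 2.81 at 0 d and 2.32, 5.85, 7.01 and 3.93 at 3 d. Samples 2, 3 and 4 of 3 d exceeded every 0 d sample, and sample 1 fell inside the 0 d range. At 5 d the 4 samples (3.99, 3.85, 4.13 and 5.02) were all above it. Casp8 rose at 3 d (log2 change 0.57 ± 0.18 (SE), limma adjusted p = 0.0134), 5 d (0.50, limma adjusted p = 0.0281) and 7 d (0.50, limma adjusted p = 0.0267). After median-ratio scaling only the 3 d change of these 3 was called (0.39, limma adjusted p = 0.0322), with 0.20 at 5 d and 0.21 at 7 d. The 3 d call was lost without 3 d sample 2 (limma adjusted p = 0.0636) or sample 3 (0.0942), and a 3 d change of 0.81 (limma adjusted p = 9.08e-05) remained without 1 d sample 4 and 3 d sample 1. It was also lost with only the 2 groups in the fit (limma adjusted p = 0.093). The 5 d call was lost without 0 d sample 1 (limma adjusted p = 0.0702), 0 d sample 2 (0.0798) or 5 d sample 4 (0.0875). The 7 d call was lost without 0 d sample 1 (limma adjusted p = 0.0668), 0 d sample 2 (0.0762), 7 d sample 1 (0.098) or 7 d sample 4 (0.103). At 1 d the mean FPKM was 4.20 ± 0.839 (SD, n = 4), with a limma adjusted p of 0.0517, and it passed the threshold without 0 d sample 3, 1 d sample 2, sample 1, 2 or 3 of 3 d or sample 2, 3 or 4 of 7 d. Leaving out 3 d sample 1 also brought the 14 d comparison (limma adjusted p = 0.0285) and the F test over the 8 groups (0.00485, from 0.135) past it. As TPM, 1, 14 and 28 d passed (limma adjusted p = 0.0255, 0.0164 and 0.0442) and so did the F test (0.0456), and with only the 2 groups in the fit the same 3 days passed (0.0199, 0.0143 and 0.0268).

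Ripk1 (ENSMUSG00000021408, chr13:34002363-34037147, plus strand) encodes the kinase that joins receptor signals to survival, apoptosis or necroptosis. At 0 d its FPKM was 1.12, 1.06, 1.16 and 1.02, and at 3 d it was 1.1, 2.59, 2.33 and 2.16. Sample 1 of 3 d again stayed at the 0 d level, while the other 3 were about 2-fold above it. At 28 d the values were 1.89, 1.95, 1.85 and 2.17, all above the 0 d range and close together. Ripk1 rose at 1, 3, 5, 7, 14 and 28 d, with log2 changes of 0.39 to 0.51 and the largest at 3 d (0.51 ± 0.13 (SE), limma adjusted p = 0.00233). The 21 d samples (1.44 to 1.61) did not overlap with 0 d, but the limma adjusted p was 0.121. It came to 0.0434 as TPM, 0.00405 with only the 2 groups in the fit and 0.041 without 1 d sample 4 and 3 d sample 1. The 1 d call was lost without 1 d sample 4 (limma adjusted p = 0.066), the 7 d call without 7 d sample 4 (0.0974) and the 14 d call without 14 d sample 4 (0.0933). After median-ratio scaling the calls at 1, 3 and 28 d held (0.34, 0.38 and 0.28), and those at 5, 7 and 14 d did not (0.23, 0.18 and 0.16). Over the 8 groups the limma adjusted p of the F test was 0.0239, and without any 1 of the 4 samples of 0 d it lay between 0.0517 and 0.0788. The exons of Ripk1 share 241 bases (2.9% of their length) with Serpinb6a on the opposite strand, a far more abundant gene (mean FPKM 141), and 511 bases with the pseudogene Gm17084. Whether the counting used strand is not given in the sources used here, so reads in these stretches cannot be told apart.

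Ripk3 (ENSMUSG00000022221, chr14:55784995-55788865, minus strand), the kinase that phosphorylates Mlkl, had FPKM of 0.793, 0.643, 1.00 and 0.770 at 0 d, or 22 to 35 fragments. At 1 d the values were 1.90, 1.13, 1.27 and 2.70, all above 0 d. At 3 d they were 0.598, 2.87, 2.81 and 1.53, so that 3 samples exceeded the 0 d range and sample 1 lay below it. Ripk3 rose at 1 d (log2 change 0.58 ± 0.20 (SE), limma adjusted p = 0.0281) and at 3 d (0.63 ± 0.20 (SE), limma adjusted p = 0.0115), and both calls held after median-ratio scaling (0.50 and 0.51). From 14 d on the means were 1.04, 0.956 and 0.926, and the ranges overlapped with 0 d. The 1 d call was lost without 0 d sample 1, 2 or 4 or without 1 d sample 1 or 4, and the last of these gave the highest limma adjusted p (0.142, log2 change 0.43). The 3 d call was lost without 3 d sample 2 (limma adjusted p = 0.0701) or sample 3 (0.0677), and with only the 2 groups in the fit (0.0741). Without 1 d sample 4 and 3 d sample 1 the change was 0.43 at 1 d (limma adjusted p = 0.0399) and 0.89 at 3 d (limma adjusted p = 2.4e-05). The limma adjusted p of the F test over the 8 groups was 0.0541 with all samples and 0.000585 without these 2. It fell under the threshold without 1 d sample 2 (0.034) or 3 (0.0472), 3 d sample 1 (0.000721) or 7 d sample 2 (0.0445) or 4 (0.0467) as well, and after median-ratio scaling (0.0139). With only the 2 groups in the fit Ripk3 was also called at 5 d (limma adjusted p = 0.0365).

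Mlkl (ENSMUSG00000012519, chr8:111311797-111338177, minus strand), the pore-forming effector of necroptosis, passed the test at no time point. Its FPKM was 1.49, 1.54, 1.65 and 1.70 at 0 d and 1.53, 1.35, 1.97 and 3.47 at 1 d. Only samples 3 and 4 of 1 d exceeded the 0 d range. At 14 d the values were 1.71, 2.05, 1.71 and 2.22, all above the 0 d range. At 28 d Mlkl had 1.68, 1.47, 1.86 and 1.54, which overlapped with 0 d on both sides. The limma adjusted p lay between 0.304 and 0.944 over the 7 days, and that of the F test was 0.853. The standard error of each of the 7 log2 changes was 0.17 as deposited. On the median-ratio scale it was 0.14, and the adjusted p of limma ran from 0.229 to 0.958. Without 1 d sample 4 and 3 d sample 1, Mlkl passed the threshold at 3 d (log2 change 0.33, limma adjusted p = 0.0464).

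The same pair of samples recurred in all of these genes. Sample 4 of 1 d had the highest FPKM of its group in 9 of 9 genes, and sample 1 of 3 d had the lowest of its group in 9 of 9. They were singled out after the values had been seen, and the share of all genes that rank this way was not counted. Mitochondrial transcripts took 12.16% of the fragments in 1 d sample 4, against 12.85% to 17.09% in the rest of its group. In 3 d sample 1 they took 13.46%, against 9.95% to 11.51%. The part of this share in the spread of the 9 genes was not tested. The macrophage markers summed to an FPKM of 351 in 1 d sample 4, against 229 to 242 in the other 3 samples of that group, and to 299 in 3 d sample 1, against 522 to 1032. The neutrophil markers summed to 97.0 in 1 d sample 4 against 9.04 to 51.7, and to 25.7 in 3 d sample 1 against 19.6 to 32.9. Markers of other cells differed too. In 1 d sample 4 the 4 Schwann cell markers summed to 85.8 against 14.1 to 40.3 and the 4 endothelial markers to 98.6 against 79.9 to 85.1. In 3 d sample 1 the endothelial sum was 45.3 against 50.5 to 63.0, the sum of 4 fibro-adipogenic markers 246 against 331 to 386, and the Schwann cell sum 6.83 against 7.38 to 18.4. Among 14 genes of the interferon and lipopolysaccharide response, 11 were highest in 1 d sample 4 and 9 were lowest in 3 d sample 1. The part of these cells in the spread of the 9 genes was not tested. With both samples left out, 36 of the 63 pairs were higher than 0 d, beside 34.8% of all gene-day pairs in the same fit.

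**Figure D2:**
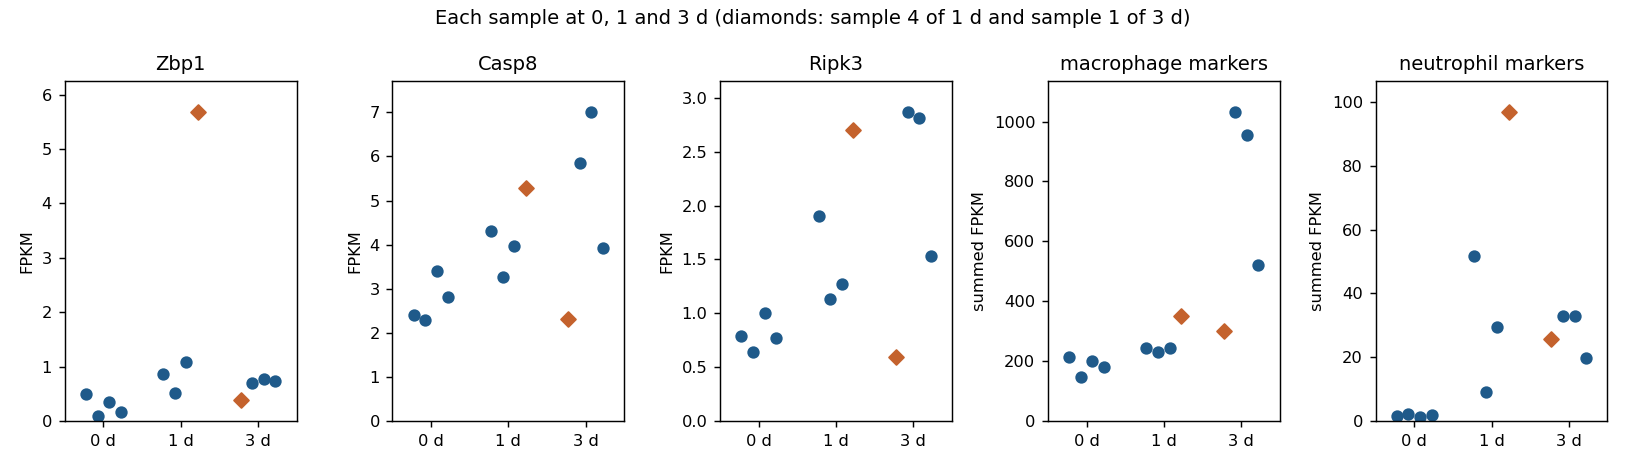
FPKM of Zbp1, Casp8 and Ripk3 and the summed FPKM of macrophage and neutrophil markers (vertical axes) in each of the 4 samples at 0, 1 and 3 d (horizontal axes). Orange diamonds mark sample 4 of 1 d, at 5.68 for Zbp1 and the highest of its group in all 5 panels, and sample 1 of 3 d, the lowest of its group in the first 4.

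Casp4 (ENSMUSG00000033538, chr9:5308828-5336783, plus strand) rose at all 7 time points. Its FPKM was 1.08, 0.993, 0.583 and 0.985 at 0 d and 2.24, 1.42, 1.99 and 3.43 at 1 d. It was highest at 5 d, with 3.94, 3.37, 4.19 and 4.02. The 5 d samples were all at least 3-fold above the highest 0 d sample. At 28 d Casp4 had come down to 2.04, 1.49, 1.40 and 2.18, still without overlap with 0 d. The log2 change was 0.75 on day 1 and 1.04 on day 3, reached 1.36 ± 0.14 (SE) on day 5 (limma adjusted p = 2.46e-09) and then came to 1.10, 0.75, 0.50 and 0.54 on days 7, 14, 21 and 28, where the highest of the 7 limma adjusted p-values was 0.00408. On the FPKM scale itself the 5 d mean was 4.26 times the 0 d mean. In the order of the group means, 0 d stood apart from 21 d, the next higher group, and each further pair of neighbours overlapped (21, 28, 14, 1, 3, 7 and 5 d). Each of the 7 calls held when any 1 sample was left out and after median-ratio scaling, where the changes were 0.33 to 1.13. No group overlapped with 0 d, and the exact permutation test, two-sided, gave p = 0.0286 at each day, the smallest that 4 against 4 samples allow. At 5 d the summed FPKM of the macrophage markers was 577 to 722, and the part of macrophages in the Casp4 change was not tested.

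Gsdme (ENSMUSG00000029821, chr6:50188888-50263862, minus strand), the pore-forming gasdermin, was flat to 14 d and highest at 28 d. Its FPKM was 0.708, 0.920, 0.756 and 0.855 at 0 d, and 0.693, 0.755, 0.756 and 0.836 at 14 d, so that the 2 groups overlapped. At 28 d the samples had 1.22, 1.09, 1.12 and 1.20, all above every sample of 0 d and of 14 d. Because its annotated exons add up to 12742 bases, these low FPKM values still rest on 127 to 269 fragments per sample. As deposited, Gsdme passed the test against 0 d at 28 d (log2 change 0.25 ± 0.06 (SE), limma adjusted p = 0.000786) and at no other day. After median-ratio scaling the 28 d change was 0.07 (limma adjusted p = 0.374), and Gsdme was instead lower than 0 d at 1 d (-0.17, limma adjusted p = 0.0204), 5 d (-0.28, limma adjusted p = 0.000155), 7 d (-0.22, limma adjusted p = 0.00227) and 14 d (-0.22, limma adjusted p = 0.00212). Quantile normalization also gave it as lower at 5, 7 and 14 d (-0.28, -0.22 and -0.25), while TPM gave 0.06 at 7 d and 0.08 at 14 d and added a call at 21 d (0.29, limma adjusted p = 0.023). Its direction against 0 d thus depends on the scaling, whereas the step from 14 to 28 d does not. That step was 0.29 ± 0.06 (SE) as deposited (limma adjusted p = 0.0033) and also 0.29 after scaling (limma adjusted p = 0.00236). The 28 d call and the step both held when any 1 sample was left out. At 21 d the FPKM was 0.811, 0.991, 1.11 and 0.997, which overlapped with both the 14 and the 28 d group, and without 21 d sample 1 the limma adjusted p against 0 d was 0.0327.

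Ninj1 (ENSMUSG00000037966, chr13:49187485-49196244, plus strand) was the most abundant of the 9 genes and on the log2(FPKM + 1) scale had the largest change against 0 d. As a ratio of mean FPKM its highest value, 4.32 at 3 d, was below that of Zbp1 (6.48 at 7 d, and 7.37 at 1 d, which came to 2.97 without 1 d sample 4), and with a pseudocount of 0.1 the log2 change of Zbp1 at 7 d (2.34) exceeded that of Ninj1 at 3 d (2.1). Its FPKM was 10.1, 9.05, 12.4 and 12.1 at 0 d and 21.3, 19, 17.5 and 21.9 at 1 d. It peaked at 3 d, with 40.1, 56.6, 50.1 and 41.9. Each of these samples exceeded every sample of every other group. At 28 d the values were 25.8, 28.5, 28 and 31.9, still at least 2-fold above the highest 0 d sample. The log2 change was 0.82 on day 1 (limma adjusted p = 2.39e-07, the highest of the 7) and 2.01 ± 0.10 (SE) on day 3 (limma adjusted p = 8.88e-16), and then 1.63, 1.55, 1.37, 1.39 and 1.31 on days 5, 7, 14, 21 and 28. After median-ratio scaling these were 0.65 to 1.80, all of them called, and every call held when any 1 sample was left out. In the order of its group means, 0 d did not overlap with 1 d, nor 1 d with 28 d, nor 5 d with 3 d. From 28 over 14, 21 and 7 to 5 d each group overlapped with the next. Of these neighbours only 14 and 28 d were compared by a test (log2 change -0.05, limma adjusted p = 0.914). The macrophage markers rose over the same days, from a median summed FPKM of 189 at 0 d to 739 at 3 d. At 3 d the 4 samples had the same order in both, with macrophage sums of 299, 1032, 956 and 522 in samples 1 to 4. At 28 d the order differed, and sample 1 was highest in the sum (551) and lowest in Ninj1 (25.8). The part of macrophages in the Ninj1 change was not tested.

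**Figure D3:**
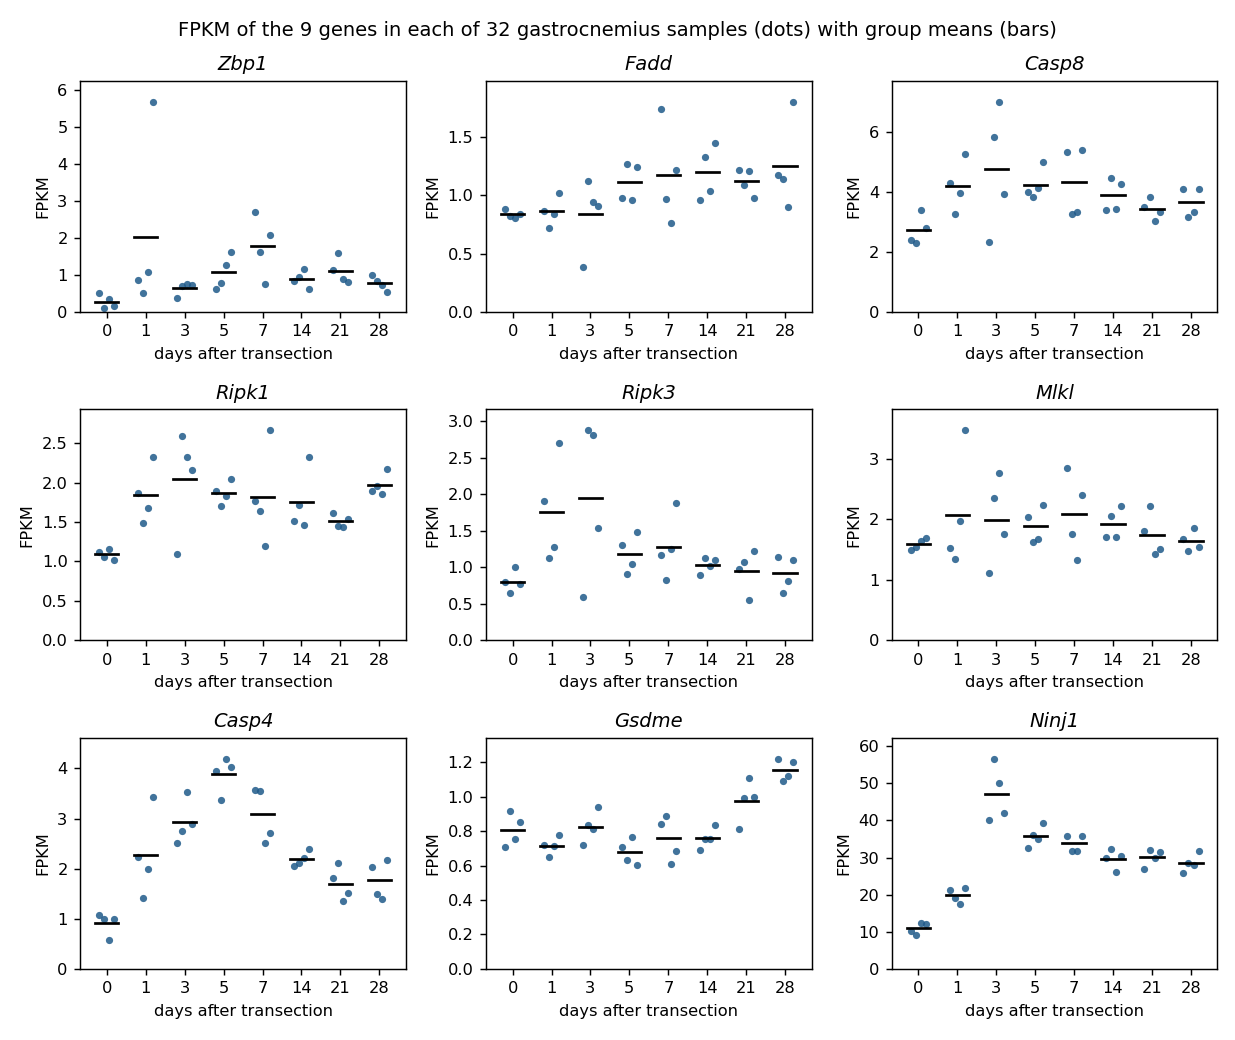
FPKM (vertical axis, from 0) of each of the 9 genes in each of the 4 samples (dots) of the 8 time points (horizontal axis, days after transection), with the group mean as a bar. Ninj1 peaks at 3 d (40.1 to 56.6) and Casp4 at 5 d (3.37 to 4.19), Gsdme is highest at 28 d (1.09 to 1.22), and Zbp1 holds a single sample at 5.68.

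Of the 3 steps between later time points that were compared, each gave at most 1 call among the 9 genes. From 1 to 3 d, Ninj1 rose further (log2 change 1.20 ± 0.10 (SE), limma adjusted p = 1.56e-10, and 1.15 after median-ratio scaling), where 30.9% of all genes tested differed in either direction. Without 1 d sample 4 and 3 d sample 1, Casp4 (limma adjusted p = 0.0045), Ripk1 (0.036) and Ripk3 (0.0298) were called for this step as well, and Casp4 also without 1 d sample 4 alone (0.00736). Leaving out 1 d sample 2 brought Zbp1 past the threshold in the other direction (log2 change -0.85, limma adjusted p = 0.0241). Without 1 d sample 4 and 3 d sample 1 the Zbp1 step was -0.06 (limma adjusted p = 0.881). From 7 to 14 d none of the 9 was called by limma or limma-voom, against 2.54% of all genes, and 1 was lower at an unadjusted p under 0.05 (Casp4, log2 change -0.35, limma adjusted p = 0.219). From 14 to 28 d Gsdme was the single gene called, against 3.80% of all genes.

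Among themselves, Casp8, Ripk1, Ripk3 and Mlkl varied together over the 32 samples, and Fadd less so with them. Pearson's r of log2(FPKM + 1) was 0.83 between Casp8 and Ripk1, 0.84 between Casp8 and Ripk3, 0.80 between Casp8 and Mlkl, 0.70 between Ripk1 and Ripk3, 0.68 between Ripk3 and Mlkl and 0.63 between Ripk1 and Mlkl. Pairs with other genes reached the lower of these values, such as Casp8 with Casp4 and Ripk1 with Ninj1 (0.63 each). For Fadd it was 0.53 with Ripk1, 0.50 with Casp8, 0.45 with Mlkl and 0.12 with Ripk3. Zbp1 went most closely with Mlkl (0.69), and Casp4 with Ninj1 (0.73). Gsdme followed none of them, with r from -0.29 (Casp4) to 0.32 (Fadd). These coefficients describe samples that share their time points, their 2 outlying libraries and the FPKM scaling, and they were not tested.

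**Figure D4:**
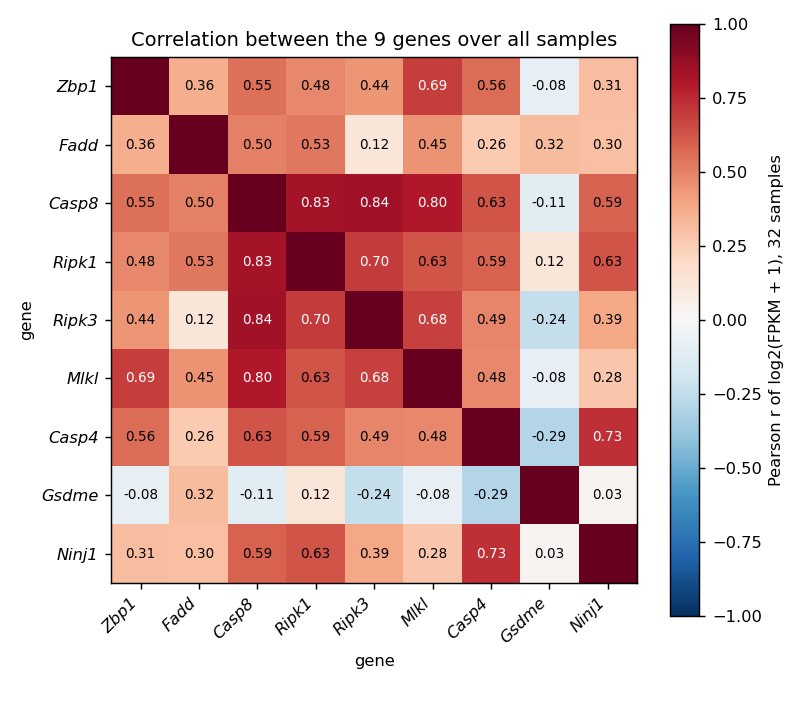
Pearson's r of log2(FPKM + 1) over the 32 samples for each pair of the 9 genes (both axes list the genes, and the colour runs from -1, blue, to 1, red). The block of Casp8, Ripk1, Ripk3 and Mlkl holds values of 0.63 to 0.84, and Gsdme is near or below 0 with most genes.

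For each gene, the 3 most alike of the 11943 genes whose mean FPKM reached 1 were listed by the same coefficient. Zbp1 was nearest to Ifi209 (0.913), Oas1a (0.885) and Trim30a (0.884), and Ripk3 to genes that include Msr1 (0.860) and Ccl6 (0.851). Casp8 was nearest to Man2a1 (0.921), Apbb1ip (0.919) and Lrp1 (0.915), and Ripk1 to Cd44 (0.929), Mob1a (0.927) and Sec61a1 (0.926). Ninj1 was nearest to Nsun2 (0.966), Eif4a1 (0.965) and Gspt1 (0.959), the highest likeness of the 9. Casp4 was nearest to Ap3d1 (0.927), Relb (0.910) and Zfp318 (0.894), and Mlkl to Actn4 (0.843), S100a11 (0.842) and Sdc3 (0.833). Fadd was nearest to Mmp2 (0.854), Ppp1r9b (0.841) and Mgat1 (0.835). Gsdme had the weakest neighbours, Sh3bp4 (0.774), Galt (0.747) and Bpifb1 (0.742).

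The other genes of these pathways were taken from lists and are given by counts, with genes from the first 3 of each list named. Their counts stand beside 20.4% to 38.0% of all genes tested called higher, depending on the day, and after median-ratio scaling beside 14.3% to 21.8% called higher and 17.2% to 22.4% lower. Of 14 genes for upstream triggers, 5 to 8 were higher and at most 1 lower at each day, and their median log2 change ran from 0.16 at 14 d, beside 0.15 over all genes tested, to 0.40 at 28 d, beside 0.14. After median-ratio scaling 4 or 5 were higher and 1 to 3 lower, and the median was -0.03 at 14 d and 0.11 at 28 d. Tnfrsf1a, the main receptor for Tnf, rose from a mean FPKM of 12.7 ± 0.888 (SD, n = 4) at 0 d to between 25.9 and 32.5 at every later day (log2 changes 0.97 to 1.27, and 0.69 to 1.02 after scaling). Tnf itself stayed at a mean FPKM of 0.134 to 0.371 and was called at no day. The death receptor Fas rose at 1 d (3.66 to 5.24, log2 change 0.42, limma adjusted p = 0.00916), and was lower than 0 d from 5 d on only after median-ratio scaling.

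Of 19 genes that regulate these routes, mostly brakes, 6 to 13 were higher and 2 or 3 lower at each day. After median-ratio scaling the split was 3 to 7 higher and 5 to 7 lower. Tnfaip3, the ubiquitin-editing inhibitor of Tnf signalling, fell from 1.38 ± 0.177 (SD, n = 4) at 0 d to 0.763 at 3 d (log2 change -0.44, limma adjusted p = 0.000969). It was lower at each day but 14 d as deposited, and at all 7 days after scaling. Cflar, which restrains Casp8, held a mean FPKM of 3.90 to 4.56 and was not called as deposited, whereas it was lower at all 7 days after scaling. Birc2, a ubiquitin ligase for Ripk1, rose to 12 at 28 d from 7.87 (log2 change 0.54, limma adjusted p = 3.91e-07), a call that was lost after scaling (0.20, limma adjusted p = 0.111), under which Birc2 was lower at 3 d (-0.31).

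Of 7 other caspases, 1 to 4 were higher at each day and at most 1 lower, and after scaling 1 to 3 were higher and at most 2 lower. Casp12 was lower at 21 d (log2 change -0.45) and at 28 d (-0.50, limma adjusted p = 0.00021), from 12 to 8.20 FPKM, and after scaling also at 3 d (-0.39) and 14 d. Among 13 genes of the canonical inflammasome, 4 to 9 were higher and at most 1 lower at each day, and after scaling 2 to 5 were higher and at most 1 lower. Nlrp3, its sensor, had a mean FPKM of 0.0633 at 0 d (1 to 8 fragments a sample, with 2 of the 4 at 3 or fewer) and 0.566 at 1 d (20 to 68 fragments), with 0.32 to 1.02 in single samples and the highest in sample 4 (limma adjusted p = 9.44e-05). It was also called at 5, 14 and 28 d, at means of 0.273, 0.302 and 0.276, and after scaling at 1 and 14 d. Casp1 rose at 5 d (0.901 to 1.92, log2 change 0.63, limma adjusted p = 0.00118) and stayed called later, though not at 14 and 28 d after scaling, and the pore former Gsdmd rose at 7, 14 and 28 d (log2 changes 0.43 to 0.51), calls that were all lost after scaling.

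Of 9 other gasdermin and ninjurin genes, 5 were found and 2 reached the level for testing. Gsdma had a mean FPKM of 0.0119 at 0 d (0 or 1 fragment a sample, under the floor of 3) and 1.05 at 7 d (34 to 56 fragments), and was called at each day from 3 d on under both scalings. Ninj2, the paralogue of Ninj1, had 0.0168 at 0 d (0 or 1 fragment a sample) and 0.221 at 5 d (1 to 5 fragments, limma adjusted p = 0.00379), thus stayed far below Ninj1, and after scaling was not called at 1, 14 and 28 d. Its calls at 3, 7, 14 and 21 d as deposited rest on counts at the floor. All 4 samples at 3 d, and 3 of the 4 at 7, 14 and 21 d, had 3 fragments or fewer. Of 8 genes listed as linked to Mlkl or its kinases, whether they help or restrain them, 2 to 4 were higher and at most 1 lower at each day. After median-ratio scaling 1 or 2 of these were higher and 2 to 5 lower. The chaperone Hsp90aa1 rose from 19.9 to 67.0 at 3 d (log2 change 1.70, limma adjusted p = 5.01e-16, and 1.48 after scaling). Its cochaperone Cdc37 rose from 5 d on, to 20.5 at 28 d (log2 change 0.67), whereas after scaling it was lower at 1 and 3 d and higher from 14 d on. The inositol phosphate kinase Itpk1 rose at 3 d (2.27 to 3.69, log2 change 0.52) and was lower at 21 d after scaling.

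Of 12 membrane repair genes, 3 were higher at 1 d and 9 or 10 at every later day, and their median log2 change at 3 d was 0.56 beside 0.06 over all genes tested. After median-ratio scaling 5 to 7 were higher from 3 d on and at most 1 lower, and the median at 3 d was 0.33. Chmp4b, an ESCRT-III subunit that pinches off damaged membrane, rose from 65.3 ± 2.52 (SD, n = 4) to 100 at 3 d (log2 change 0.61, limma adjusted p = 3.56e-10), and after scaling it was higher at 3 d (0.38) but lower at 28 d (-0.22). Vps4b, the ATPase that recycles ESCRT-III, rose at all 7 days, to 7.06 from 4.27 at 28 d, and after scaling at all but 5 d. Trim72, a muscle membrane repair protein, rose from 3 d on (57.7 to 83.1 at 3 d, log2 change 0.51), and after scaling at 3 and 21 d only.

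The 14 interferon and lipopolysaccharide response genes moved in both directions, with 8 lower and 2 higher at 3 d and 11 higher at 7 d. Their median log2 change was -0.31 at 3 d and 0.72 at 7 d, beside 0.06 and 0.13 over all genes tested, and after median-ratio scaling it was -0.45 and 0.42. The guanylate-binding protein Gbp2 went from 6.10 at 0 d to 3.83 at 3 d (log2 change -0.59, limma adjusted p = 0.00226) and 11.4 at 7 d (0.81, limma adjusted p = 6.88e-05), with -0.80 and 0.47 after scaling. Irf1 fell at 3 d (3.17 to 1.87, log2 change -0.56, limma adjusted p = 0.00131) and was called at no other day as deposited, and after scaling at 3 and 5 d. Zbp1, itself an interferon-induced gene, had group means of 2.04 at 1 d (0.821 without sample 4), where 4 of the 14 were higher and 1 lower, 0.647 at 3 d and 1.79 at 7 d.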

How the data were processed

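GAS muscle RNA from 32 mouse samples (8 time points, 4 samples each) had been sequenced. The submitters' processing notes name CASAVA, HISAT2 2.1.0, DESeq2 and GRCm38, and the counter and annotation are not given in the sources used here. The authors deposited FPKM values for 33397 genes. Symbols and exon lengths came from GENCODE mouse release 21, which held 33356 of these genes. With those lengths 99.3% to 99.4% of the values under 200 fragments came out whole within 0.05, and the recovered depth was 14199901 to 17561584 fragments per sample. Counting precision follows this depth, and floors cover counting error only.

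Columns were assigned to groups by the day in their names, with the columns named C taken as 0 d. Genes that reached an FPKM of 0.1 in 4 or more samples were tested on log2(FPKM + 1), a scale that understates the change of low genes, with limma 3.58.1 (R 4.3.3, variance trend). Benjamini-Hochberg adjustment ran over all 22071 genes. Fold changes are on this scale unless given as ratios of means. Exact permutation tests were two-sided. The fit was tested on simulated data. Promoter sequences were RefSeq windows (GRCm38.p6). Alternatives covered the pseudocount, filters, scaling (median-ratio, TPM, quantile), variance trend, limma-voom, samples in the fit and a fold threshold. The genes, lists and tests were chosen with earlier results of these data known. The genes named are the 9, the first 3 of each list and the 3 most alike of each gene. Gsdmc, named by that rule, was not analysed here, and results for some other genes the rule covers are not reported here. PCR, protein and histology data were not used here.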

Additional observations from a re-analysis of the deposited data

Results flagged for a closer look

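In 72 groups of 4 samples (9 genes at 8 time points), 1 sample lay far from the other 3 by Dixon's criterion, while chance gives about 1 in 20, or 3.6. This was Zbp1 at 1 d in sample 4, with an FPKM of 5.68 against 0.516 to 1.09 in the other 3 samples. Gsdme changed between 14 and 28 d, with a log2 difference of 0.29 (limma adjusted p = 0.0033), so its change against 0 d differed between these days. Ninj1 changed between 1 and 3 d, with a log2 difference of 1.20 (limma adjusted p = 1.56e-10), so its change against 0 d differed between these days as well.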

How the results depend on the processing

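The number of gene-day pairs higher than 0 d, 30 with the main settings, was 22 to 39 under 10 alternatives. It was 17 when a change of at least 1.5-fold was also required, and 25 to 33 when 1 sample was left out in turn. The 0 lower pairs became 4 under median-ratio scaling and 3 under quantile normalization, all of them Gsdme, and stayed 0 otherwise. The number of genes that varied over the 8 groups, 5 with all samples, was 4 to 7 under the alternatives and ranged from 3 to 7 with 1 sample left out. The 2 step calls were 2 or 3 with 1 sample left out, and became 1 with the 1.5-fold requirement and 5 without 1 d sample 4 and 3 d sample 1, an alternative chosen after seeing the data. Gsdme, below 0 d at 7 and 14 d as deposited without a call, was above it under TPM (log2 change 0.06 and 0.08). The causes of these shifts were not tested. No paired analysis was possible because the columns carry letters or numbers that are tied to no labelled sample, so the fit blocked on replicate number was not run. Counting depth limits Zbp1, Ripk3 and Fadd the most.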
